A study of Homo sapiens with 44 samples.

Results

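Cultures at day 90 of cardiac differentiation were compared with cultures at day 9, gene by gene, by RNA sequencing. The comparison used every library that the labels give to these days, 3 at day 90 and 5 at day 9, which is 8 of the 44 libraries of a time course. All came from H1, a long-established line of human embryonic stem cells for which the labels name no genetic change, and each library came from 1 culture well, named here by its replicate number (wells 1, 2, 3, 4 and 10 at day 9 and wells 2, 4 and 5 at day 90). Wells of both days were coated with the laminins LN-521 and LN-221. All received CHIR99021, an inhibitor of the kinase GSK3, at day 0, and IWP2, an inhibitor of Wnt ligand secretion, at day 3. Day 9 wells were in RPMI 1640 with B27 without insulin. Day 90 wells were in RPMI 1640 with CTS B-27, the medium used from day 11, so the effects of time and of medium cannot be told apart. The deposited sample sheet calls the replicate number a biological replicate. Nothing in the labels says whether wells of different days came from separate differentiations. The p-values therefore measure a spread between wells, which may be technical in part. For single genes that spread was estimated over all 44 libraries in 12 groups, not from these 8 alone.

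A GSK3 inhibitor followed by a block of Wnt secretion first drives stem cells into mesoderm and then lets part of that mesoderm become heart muscle. Early cultures of this kind hold young cardiomyocytes beside other cells of mesoderm and endoderm. In the developing heart, ventricular muscle exchanges fetal protein isoforms for adult ones, builds out its calcium stores and its Z-discs, and shifts its energy supply towards mitochondria. Fibroblasts, smooth muscle, endothelium and epicardium are the other main tissues of the heart wall. These are whole cultures, in which fewer cells of a type and less RNA per cell cannot be told apart.

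Library totals were 23903377 to 31040870 expected counts at day 9 and 18450560 to 27156109 at day 90. The RNA integrity number was 8.9 to 10 at day 9 and 8 to 9.5 at day 90. The spread between wells was wider at day 90, with a biological coefficient of variation of 41.7% against 25.3% at day 9. The test of each gene shared its estimate of spread over all days, so an SE does not by itself show the wider spread at day 90. Well 4 at day 90 stood apart from its neighbours. Its Spearman correlation over the tested genes was 0.944 with well 2 and 0.949 with well 5, while wells 2 and 5 gave 0.979. In well 4, 101 genes at 10 CPM or more were over 4 times above both other day 90 wells and 129 were over 4 times below both. The same counts were 25 and 1 for well 2, and 7 and 6 for well 5. Levels are CPM, a gene's counts relative to its scaled library total, and 3 counts in a library, below which a gene is taken as at the floor, are 0.0976 to 0.128 CPM at day 9 and 0.134 to 0.209 CPM at day 90. Wells 2 and 5 of day 90 were sequenced in lane 5 with wells 2 and 3 of day 9, and well 4 of day 90 in lane 4 with well 10 of day 9.

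Of 22955 genes tested, 2739 were higher and 2746 lower at day 90, at an adjusted p under 0.05 and a log2 fold change of at least 1 (edgeR's quasi-likelihood test with Benjamini-Hochberg adjustment, here and for every adjusted p below). That is 23.9% of the genes tested, 11.9% higher and 12% lower, and the median log2 fold change of all genes tested was -0.02. Changes were large in both directions, with 366 genes higher and 417 lower by a log2 fold change of 4 or more. The authors also deposited TPM. On the scale of log2(TPM + 1) computed from it, the median gene with a mean of 10 TPM or more lay 0.55 lower than on the CPM scale. Of the calls on that scale 19.8% were higher, against 49.9% here. On that scale the RNA of the signal recognition particle, a short non-coding RNA, took 26.2 to 41.7% of the TPM total at day 9 and 41.2 to 54.6% at day 90, and its part in the shift was not tested. Directions are therefore given relative to the scaling of library totals. Of the 53 lists used below, 12 had a median log2 fold change above 0 on the CPM scale and below 0 on the log2(TPM + 1) scale, namely the atrial, fibroblast, neural and skeletal muscle markers and the lists of DNA replication, intercalated disc, laminins, retinoic acid, imprinted genes, heart transcription factors, hormone receptors, and p53 and senescence. Counts of calls on the log2(TPM + 1) scale, by limma, are given beside several lists whose counts moved with the scale. The added 1 TPM also shrinks the fold changes of genes at low levels, so calls lost there do not speak to scaling alone. No gene named here as called changed sign under any alternative setting that was run.

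The 4 genes chosen to mark the 2 ends of the interval separated the days in every well. MYL2, the ventricular myosin regulatory light chain, was at 0.114, 0.269, 0.472, 0.553 and 1.03 CPM in the day 9 wells and 222, 259 and 319 CPM in the day 90 wells. CDH5, the adhesion protein VE-cadherin of endothelial junctions, was at 57.7, 51.4, 62.96, 61.9 and 37.3 CPM in the day 9 wells and 0.448, 0.0696 and 0.392 CPM in the day 90 wells. MYL2 was close to the floor at day 9 and CDH5 at day 90. APOA2, a lipoprotein component made by liver cells, was at 186, 391, 169.8, 82.6 and 98.3 CPM in the day 9 wells and 0.672, 0.348 and 0.224 CPM in the day 90 wells. ASB11, a muscle-enriched part of a ubiquitin ligase, was at 0, 0.0673, 0.118, 0.0651 and 0.0856 CPM in the day 9 wells and 30.6, 165 and 67.4 CPM in the day 90 wells. No level of one day overlapped those of the other for any of the 4 genes, which is also true of 36.7% of all genes tested. The changes were 9.11 ± 0.67 SE for MYL2, -7.37 ± 0.73 SE for CDH5, -8.73 ± 1.04 SE for APOA2 and 10.26 ± 0.77 SE for ASB11 on the log2 scale. ASB11 was at or under the floor in all 5 day 9 wells, which makes it at least 785-fold higher at day 90.

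Some cell-type marker lists moved mostly in 1 direction, where 11.9% of all genes tested were higher and 12% lower. Of the 21 liver and foregut markers tested, 20 fell, as did 15 of 16 endothelial markers, 8 of 12 epithelial markers and 4 of 8 pluripotency markers. Among cardiomyocyte markers 13 of 16 rose and 1 fell, and among ventricular markers 6 of 7 rose. Other lists were split or mostly not called, such as the atrial (3 higher and 1 lower of 11), pacemaker (4 and 3 of 8) and neural lists (1 and 1 of 10). Median log2 fold changes ran from -6.498 for the liver and foregut list to 2.76 for the ventricular list.

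**Figure D1:**
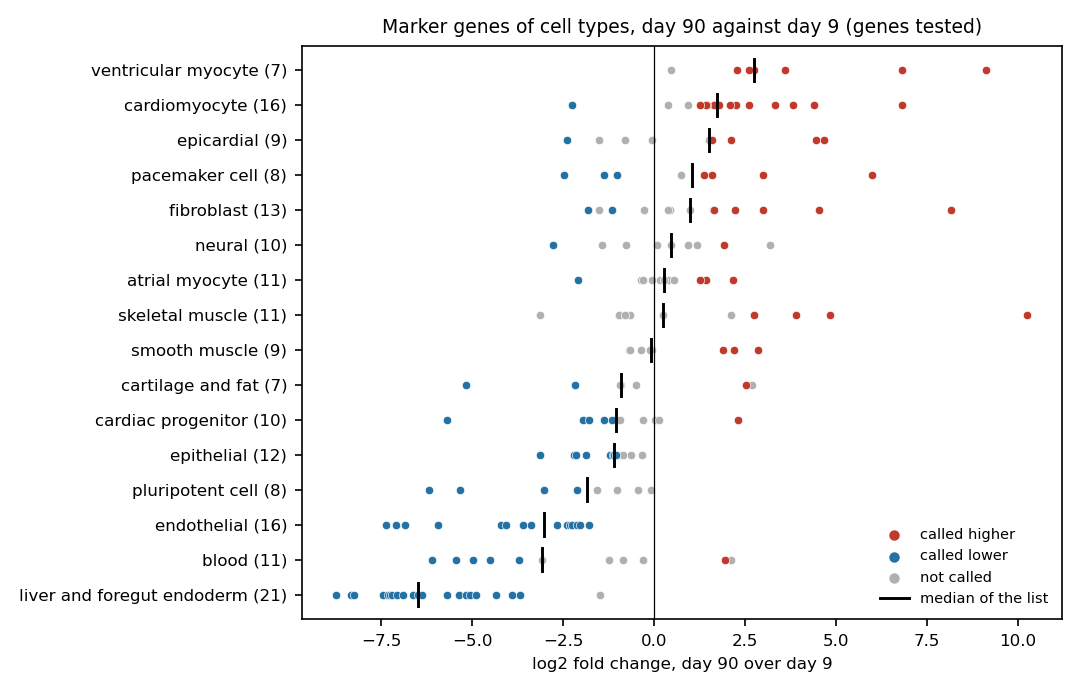
Log2 fold change of day 90 over day 9 for each tested member of 16 cell-type marker lists, 1 point per gene, with the number tested in brackets after each name. Red points were called higher, blue called lower and grey neither, and the black bar is the median of the list. Liver and endothelial markers lie to the left of 0, as do most blood markers, and ventricular and cardiomyocyte markers mostly to the right.

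**Figure D2:**
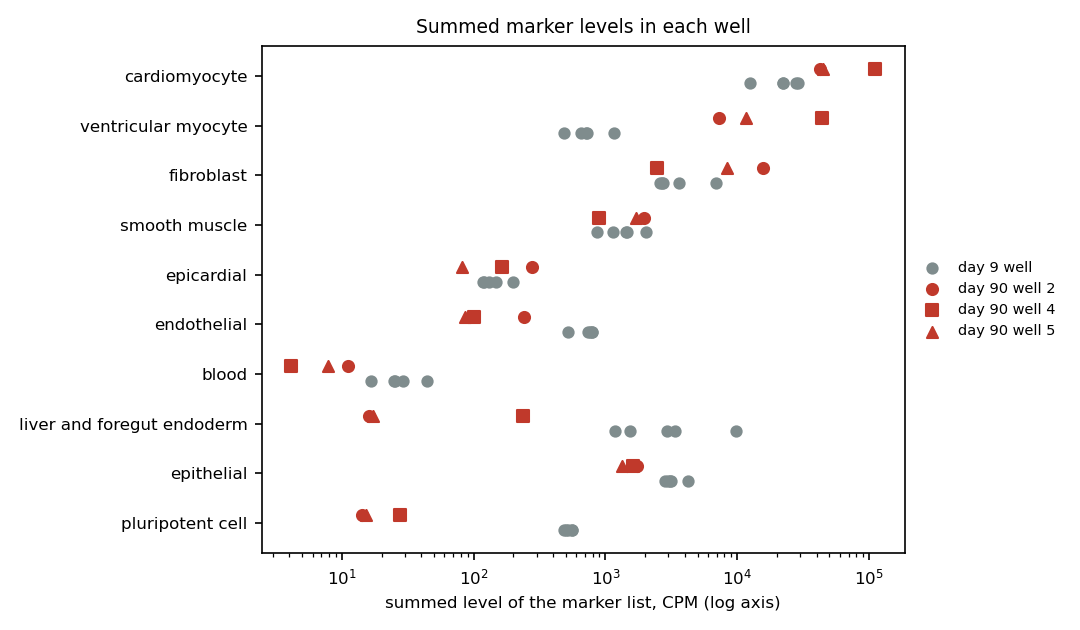
Summed level of the members of 10 marker lists in each well, in CPM on a log axis, with day 9 wells in grey and the 3 day 90 wells in red. Day 90 well 4, the square, is highest in the cardiomyocyte and ventricular lists, lowest in the fibroblast list and highest of the day 90 wells in the liver list.

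Cardiomyocyte genes rose, and most in well 4. The summed level of the 16 cardiomyocyte markers was 22278, 12484, 28763, 22374 and 28149 CPM in the day 9 wells and 42157, 111651 and 44394 CPM in the day 90 wells. Every day 90 well was above every day 9 well, and well 4 was the highest of all 8. Myosin heavy chain exchanged its isoforms. MYH7, the slow heavy chain of adult ventricle, was at 74.04, 32.02, 122, 254 and 247 CPM in the day 9 wells and 4301, 36479 and 8055 CPM in the day 90 wells (log2 fold change 6.801 ± 1.02 SE, adjusted p = 1.26e-06). MYH6, the fast heavy chain of atrium and of early cultures, was at 7457, 4203, 9089.997, 7618 and 7384 CPM in the day 9 wells and 1685, 904 and 1879 CPM in the day 90 wells (log2 fold change -2.26 ± 0.44 SE, adjusted p = 7.77e-05). In every day 90 well MYH7 was above its highest day 9 level and MYH6 below its lowest. MYH6 and MYH7 are neighbours with near-identical sequences, and counting may have divided shared reads between both. PLN, the inhibitor of the calcium pump of the sarcoplasmic reticulum, was at 97.2, 64.98, 119.7, 73.2 and 187 CPM in the day 9 wells and 2111, 2508 and 2267 CPM in the day 90 wells (log2 fold change 4.405 ± 0.39 SE, adjusted p = 1.32e-11). TNNI3, the adult cardiac troponin I, was at 26.6, 16.4, 17.1, 21.5 and 47.1 CPM in the day 9 wells and 373, 269 and 442 CPM in the day 90 wells (log2 fold change 3.81 ± 0.52 SE, adjusted p = 1.91e-07). TNNI1, the fetal troponin I, rose as well (1.797), as did the troponins TNNT2 (1.65) and TNNC1 (3.32) and the light chains MYL3 (2.599), MYL4 (1.42) and MYL7 (1.27). NKX2-5, a transcription factor of cardiac identity, and ACTC1, the cardiac actin, were not called, at log2 fold changes of 0.38 and 0.93. Without well 4, 9 of the 16 markers were called higher rather than 13, and on the log2(TPM + 1) scale 7 were. The 4 lost were TTN (0.67, adjusted p = 0.293), ACTN2 (0.85, adjusted p = 0.11), RYR2 (0.93, adjusted p = 0.0206) and MYL7 (1.13, adjusted p = 0.0802), where the values are log2 fold changes from wells 2 and 5 alone.

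Chamber markers did not move together. Beside MYL2, MYH7 and MYL3, the ventricular list gained the transcription factor HEY2 (2.29), the LIM-domain protein FHL2 (3.59) and LBH (2.76). FHL2 was at 161, 91.3, 111, 128 and 193 CPM in the day 9 wells and 679, 3071 and 1199.8 CPM in the day 90 wells, so that all 3 day 90 wells exceeded all day 9 wells. IRX4, a ventricular transcription factor, was not called (0.48). Of 11 atrial markers 3 rose, namely MYL7 (1.27), MYL4 (1.42) and GJA5 (2.16), and HEY1 (-2.09) fell. The atrial peptide NPPA (0.38) and sarcolipin SLN (-0.37) were not called. NPPA was at 412, 183, 453, 683 and 1407 CPM in the day 9 wells and 1325, 184 and 937 CPM in the day 90 wells, and the groups overlapped. In the pacemaker list SHOX2 rose, at 0.152, 0.505, 0.433, 0.13 and 0.0428 CPM in the day 9 wells and 27.1, 0.557 and 21.6 CPM in the day 90 wells (log2 fold change 5.98 ± 0.97 SE, adjusted p = 4.93e-06), and well 4 was near the day 9 range. TBX18 (1.58) rose too, while TBX3 (-2.48) and ISL1 (-1.37) fell; HCN4, the main pacemaker channel, was not called (0.74). Without well 4, ISL1 and TBX18 were no longer called, and 2 of the 8 pacemaker markers were higher and 1 lower. Among progenitor markers the apelin receptor APLNR (-5.69), HAND1 (-1.94), KDR (-1.79) and PDGFRA (-1.16) fell and HAND2 (2.31) rose. PDGFRA lost its call without well 4 (-0.61, adjusted p = 0.11) and without well 5 (-1.23, adjusted p = 0.0578).

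Sarcomere and Z-disc genes were called higher in 16 of 26 cases and lower in none, with a median log2 fold change of 1.58. NRAP, which anchors actin filaments at the cell junction during myofibril assembly, was at 0, 0.101, 0.197, 0 and 0.257 CPM in the day 9 wells and 36.9, 123 and 56.1 CPM in the day 90 wells (log2 fold change 9.35 ± 0.83 SE, adjusted p = 1.55e-11). MYOT, the Z-disc protein myotilin, was at 0, 0, 0, 0 and 0.0428 CPM in the day 9 wells and 0.762, 0.974 and 1.23 CPM in the day 90 wells (log2 fold change 6.29 ± 1.08 SE, adjusted p = 2.86e-05). For both, each day 90 well lay far above every day 9 well. XIRP2 (4.83), the ubiquitin ligase TRIM63 (4.47), titin-cap TCAP (3.89), CSRP3 (3.6998), the M-band protein MYOM1 (3.63), MYOZ2 (2.53) and desmin DES (2.496) rose as well. Titin, TTN, was at 5417, 3338, 10259, 6369.9 and 4594 CPM in the day 9 wells and 10583, 37900.5 and 8334 CPM in the day 90 wells (log2 fold change 1.66 ± 0.46 SE, adjusted p = 0.00389). Its rise rested on well 4, and it also overlaps antisense and neighbouring genes whose reads could be shared. Without well 4, 13 members were higher and 1 was lower, and on the log2(TPM + 1) scale 9 were higher. MLIP, a muscle lamin-interacting protein, was among the 12 largest rises of protein-coding genes with a mean of 10 TPM or more at day 90 and no overlap between days (7.42), as was the cardiac kinase TNNI3K (7.04), which shares its locus with a read-through transcript.

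Ratios of paired isoforms within a well, which do not depend on scaling between libraries, all shifted. For MYL2 over MYL7 the log2 ratio of TPM was -14.62, -12.63, -13.01, -12.79 and -12.74 in the day 9 wells and -5.28, -5.48 and -4.71 in the day 90 wells. MYL7, the atrial light chain, stayed the more abundant of the pair in every well. For MYH7 over MYH6 it was -6.73, -7.11, -6.296, -4.98 and -4.98 in the day 9 wells and 1.25, 5.25 and 2.02 in the day 90 wells, so that MYH7 exceeded MYH6 in all 3 day 90 wells and in no day 9 well. TNNI3 over TNNI1 gave -3.92, -3.85, -4.02, -3.301 and -3.58 in the day 9 wells and -1.501, -2.53 and -1.54 in the day 90 wells. TNNI1 remained the higher of the 2 troponin I transcripts throughout. The muscle subunits of cytochrome c oxidase gained on their ubiquitous partners, by 1.78 for COX6A2 over COX6A1 and by 4.96 for COX7A1 over COX7A2. Muscle creatine kinase CKM over the brain type CKB gave -1.82, -2.47, -2.01, -2.21 and -0.84 in the day 9 wells and 2.08, 2.796 and 2.34 in the day 90 wells. The order of the pair turned, with CKB above CKM in all day 9 wells and below it in all day 90 wells. LDHB over LDHA, the heart-type and muscle-type subunits of lactate dehydrogenase, moved towards LDHA, by -0.797. In all 7 ratios no day 90 well overlapped a day 9 well, where the levels of 36.7% of single genes did not overlap either. Each gave p = 0.0357 in a two-sided exact permutation test, the smallest p that 5 wells against 3 allow, which stayed 0.0357 after adjustment over 8 tests. The pairs were drawn from genes chosen with earlier results of these data known, and MYL2 was given as a marker of the interval. These p-values are therefore not independent support for a shift.

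**Figure D3:**
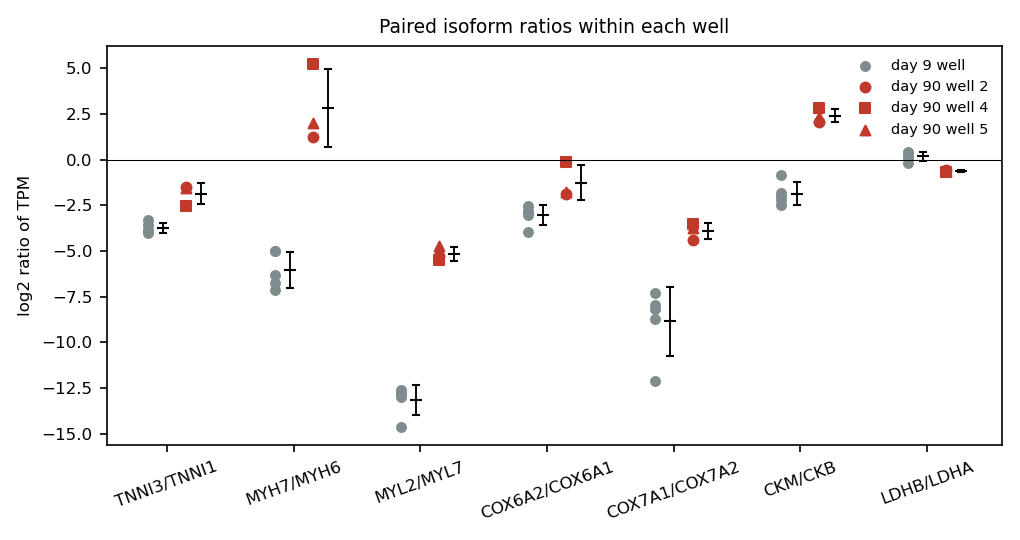
Log2 ratio of TPM for 7 gene pairs in each well, with day 9 wells in grey and day 90 wells in red, and the mean and SD of each group as black bars beside the points. Only MYH7/MYH6 and CKM/CKB cross from below to above 0, and well 4, the square, has the highest MYH7/MYH6 and COX6A2/COX6A1 ratios.

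Genes of calcium handling rose in 15 of 20 cases and fell in 2, with a median log2 fold change of 1.74. CASQ2, the calcium buffer of the sarcoplasmic reticulum, was at 0.834, 0.337, 0.511, 0.423 and 1.11 CPM in the day 9 wells and 36.04, 6.05 and 16.9 CPM in the day 90 wells (log2 fold change 4.94 ± 0.65 SE, adjusted p = 1.64e-07). CAV3, the caveolin of muscle membranes, was at 0, 0, 0, 0.0325 and 0.0428 CPM in the day 9 wells and 2.87, 1.25 and 2.24 CPM in the day 90 wells (log2 fold change 6.74 ± 1.22 SE, adjusted p = 5.70e-05). S100A1, a calcium sensor of heart muscle (4.23), the sodium-calcium exchanger SLC8A1 (2.89), the L-type channel CACNA1C (2.48) and the release channel RYR2 (2.08) also rose. BIN1, which shapes the transverse tubule, fell (-1.76), as did the embryonic L-type channel CACNA1D (-1.28). ATP2A2, the calcium pump of the sarcoplasmic reticulum, was at 750.1, 392.1, 857, 861 and 1037 CPM in the day 9 wells and 938, 3063 and 963 CPM in the day 90 wells, and was called higher (1.09) only when well 4 was included (0.30, adjusted p = 0.49 without it). Without well 4 the list had 11 genes higher, and on the log2(TPM + 1) scale 8.

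Potassium and sodium channels were called higher in 11 of 22 cases, and in 7 without well 4. On the log2(TPM + 1) scale 3 were higher, and the median was 0.16 rather than 1.05. ABCC9, the sulfonylurea-receptor subunit of the ATP-sensitive potassium channel, was at 0.341, 0.774, 1.61, 2.896 and 1.07 CPM in the day 9 wells and 20.98, 122 and 26.1 CPM in the day 90 wells (log2 fold change 5.38 ± 0.52 SE, adjusted p = 1.32e-10). KCNJ8, its pore-forming partner, rose (2.34), as did KCNQ1 (3.16) and KCNH2 (1.61), which carry the slow and rapid delayed rectifiers, and KCNJ2 (2.26), which sets the resting potential. KCNJ2 was at 1.59, 2.66, 2.44, 3.03 and 5.903 CPM in the day 9 wells and 7.89, 25.05 and 12.2 CPM in the day 90 wells. All 3 day 90 wells exceeded every day 9 well for KCNJ2. At the intercalated disc 4 of 15 genes rose, CTNNA3 (2.29) and GJA5 (2.16) most, and the desmosomal cadherins DSG2 (-1.22) and DSC2 (-1.04) fell.

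Energy metabolism moved upward on the CPM scale. Of 13 mitochondrially encoded mRNAs, 10 rose, with a median of 2.04, whereas 2 were called higher on the log2(TPM + 1) scale, with a median of 1.53. Mitochondrially encoded genes took 0.605, 0.24, 0.481, 0.402 and 0.317% of the counts in the day 9 wells and 0.89, 2.36 and 1.39% in the day 90 wells (p = 0.0357, two-sided exact permutation test, the smallest possible). MT-CO1, the catalytic subunit of cytochrome c oxidase, was at 3206, 1239.9, 2106, 1839.8 and 1801 CPM in the day 9 wells and 4692, 15856 and 7533 CPM in the day 90 wells. Of 48 nuclear-encoded respiratory chain genes, 16 rose and none fell, with a median of 0.86. The median fell to 0.28 on the log2(TPM + 1) scale, where 3 genes were called higher. COX7A1, the muscle and heart isoform, was at 0.265, 0.0337, 0.433, 0.325 and 0.898 CPM in the day 9 wells and 7.799, 10.1 and 13.4 CPM in the day 90 wells (log2 fold change 4.75 ± 0.82 SE, adjusted p = 1.20e-05). COX6A2 (2.18), COX7B (1.79) and cytochrome c CYCS (1.55) followed it.

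For fatty acids, 11 of 32 genes rose, and the largest rises were those of CD36 and FABP3, which take up and carry fatty acids. CD36, the fatty acid translocase, was at 2.62, 1.25, 2.399, 3.29 and 4.58 CPM in the day 9 wells and 85.1, 153 and 119 CPM in the day 90 wells (log2 fold change 5.399 ± 0.41 SE, adjusted p = 3.55e-13). FABP3, the heart fatty acid binding protein, was at 41.6, 23.3, 37.7, 29.2 and 61.9 CPM in the day 9 wells and 579, 731 and 609 CPM in the day 90 wells (log2 fold change 4.05 ± 0.27 SE, adjusted p = 2.71e-14). CPT1B, the muscle carnitine transferase that admits fatty acids into mitochondria, was not called (-0.74), and without well 4 it was called lower (-1.07, adjusted p = 0.0126). Glycolysis had 11 of 25 genes higher, with the muscle isoforms PGAM2 (3.18) and ENO3 (1.26), ALDOC (2.41), PGK1 (1.63) and LDHA (1.21) among them. The insulin-responsive glucose carrier SLC2A4 rose (2.02) and the carrier SLC2A3 fell (-2.601). Both lists had few calls by TPM, with 2 genes higher for fatty acids and 3 for glycolysis. CKMT2, the mitochondrial creatine kinase of sarcomeric muscle, was at 2.12, 1.62, 2.01, 1.66 and 3.42 CPM in the day 9 wells and 135, 495 and 176 CPM in the day 90 wells (log2 fold change 6.96 ± 0.56 SE, adjusted p = 1.57e-12). MB, the oxygen store myoglobin, rose (2.19), and so did the creatine carrier SLC6A8 (2.46) and the heme synthesis enzyme ALAS2 (4.04). NDUFA4L2, a hypoxia-inducible relative of a respiratory chain subunit, was at 0.531, 0.606, 0.669, 0.26 and 0.385 CPM in the day 9 wells and 51.9, 120.3 and 85.3 CPM in the day 90 wells. In sterol and fatty acid synthesis 9 of 20 genes rose, INSIG1 (2.42) among them, and fatty acid synthase FASN fell (-1.503), against 2 higher and 2 lower on the log2(TPM + 1) scale.

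Small heat shock proteins, which guard sarcomeric and cytoskeletal proteins, rose in 6 of 7 cases, with a median of 3.35. HSPB3, a form of differentiated muscle, was at 1.099, 0.64, 0.669, 0.846 and 2.35 CPM in the day 9 wells and 297, 282 and 382 CPM in the day 90 wells (log2 fold change 8.18 ± 0.43 SE, adjusted p = 3.24e-17). CRYAB, the desmin chaperone, was at 27.6, 12.1, 27.5, 24.9 and 51.3 CPM in the day 9 wells and 420.2, 623 and 664 CPM in the day 90 wells (log2 fold change 4.31 ± 0.33 SE, adjusted p = 6.05e-13), and its locus overlaps HSPB2. HSPB6 (4.85), HSPB7 (3.35) and HSPB1 (1.704) also rose, and HSPB8 was not called (0.88). Of 11 skeletal muscle markers tested, 4 rose and 7 were not called, with a median of 0.25 (-0.01 on the log2(TPM + 1) scale). Those that rose were ASB11, CKM, the fast troponin TNNT3 (4.83) and MYOG, the myogenin of skeletal muscle, at 0.152, 0.0337, 0.0786, 0.163 and 0.0428 CPM in the day 9 wells and 1.26, 1.53 and 1.68 CPM in the day 90 wells. The muscle kinase SRPK3, which is not in the list, was at least 72.3-fold higher. MYH3, the embryonic skeletal myosin, and ACTA1, the skeletal actin, were among those not called (-0.65 and -0.79).

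Fibroblast markers were together higher in wells 2 and 5 than in well 4. The summed level of the 13 fibroblast markers was 3633, 6889.8, 2705, 2749 and 2614 CPM in the day 9 wells and 15822, 2477 and 8438 CPM in the day 90 wells. FAP, a surface protease of activated fibroblasts, was at 0, 0.0337, 0.0786, 0.0651 and 0 CPM in the day 9 wells and 22.6, 1.53 and 11.6 CPM in the day 90 wells (log2 fold change 8.16 ± 0.81 SE, adjusted p = 3.64e-10). DCN, the collagen-binding proteoglycan decorin, was at 8.95, 35.7, 3.11, 7.81 and 8.598 CPM in the day 9 wells and 551, 58.3 and 291 CPM in the day 90 wells (log2 fold change 4.54 ± 0.89 SE, adjusted p = 8.24e-05). THY1, a fibroblast surface protein, was at 8.23, 12.02, 5.11, 5.56 and 5.05 CPM in the day 9 wells and 57.1, 1.6003 and 41.6 CPM in the day 90 wells (log2 fold change 2.22 ± 0.62 SE, adjusted p = 0.00394), and well 4 was below the day 9 wells. COL1A1, the main fibrillar collagen, was not called and was at 426, 524, 350.1, 434 and 267 CPM in the day 9 wells and 945, 178 and 516 CPM in the day 90 wells. In all, 5 of 13 fibroblast markers rose and 2 fell, FBLN1 (-1.82) and PDGFRA. Without well 4, 7 of the markers were higher, and without well 2, 3 were higher and the list's median was 0.31. The list's median turned from 0.98 on the CPM scale to -0.03 on the log2(TPM + 1) scale. In smooth muscle, MYH11 (2.198), CNN1 (1.89) and SYNPO2 (2.85) rose, and the other 6 markers were not called. ACTA2, smooth muscle actin, was at 432, 259, 536, 265 and 674 CPM in the day 9 wells and 663, 30.5 and 523 CPM in the day 90 wells. Wells 2 and 5 kept the day 9 level of ACTA2 or exceeded most of it, and well 4 had far less. Epicardial markers were split between wells as well as between genes. UPK3B, a mesothelial surface protein, was at 0.227, 0.438, 0.0393, 0.781 and 0.385 CPM in the day 9 wells and 21.2, 4.87 and 3.03 CPM in the day 90 wells, and the retinoic acid synthase ALDH1A2 was at 1.86, 3.16, 1.02, 1.07 and 1.11 CPM in the day 9 wells and 87.6, 14.1 and 6.05 CPM in the day 90 wells. Both were called higher (4.66 and 4.44), whereas WT1 (1.501) was not.

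Matrix genes changed in both directions, and well 4 was not the lowest for all of them. ELN, elastin, was at 4.74, 6.09, 6.69, 5.37 and 3.21 CPM in the day 9 wells and 192, 9.95 and 190.4 CPM in the day 90 wells (log2 fold change 4.65 ± 0.47 SE, adjusted p = 4.23e-10). MGP, the matrix Gla protein that restrains calcification, was at 0, 0.202, 0.236, 0.163 and 0 CPM in the day 9 wells and 214, 16.3 and 103 CPM in the day 90 wells (log2 fold change 9.75 ± 0.87 SE, adjusted p = 1.96e-11). Well 4 had the lowest level of both among the day 90 wells and still exceeded every day 9 well. Collagens rose in 11 of 20 cases, with COL16A1 (4.396) and COL15A1 (3.66) the most, and COL6A1 (-1.33) and COL6A2 (-1.13) fell. Elastic fibre genes rose in 9 of 22 cases, FBLN5 (3.53) and MFAP4 (3.37) among them. The summed level of the elastic fibre list was 2449.9, 2095, 2883, 3678 and 2540.1 CPM in the day 9 wells and 2945, 5028 and 2524 CPM in the day 90 wells, highest in well 4. On the log2(TPM + 1) scale 4 collagens and 5 elastic fibre genes were higher. Without well 2, COL3A1 was no longer called (0.91, adjusted p = 0.268), and 7 collagens were higher. Of 11 laminin chains 5 rose and 3 fell, against 1 and 4 on the log2(TPM + 1) scale. LAMA1, the chain of early embryonic basement membranes, was at 388, 399.7, 444, 396 and 213 CPM in the day 9 wells and 6.68, 9.53 and 12.1 CPM in the day 90 wells (log2 fold change -5.29 ± 0.42 SE, adjusted p = 1.18e-12). LAMA2, the chain of muscle basement membranes, was at 42.3, 28.3, 35.5, 31.6 and 36.1 CPM in the day 9 wells and 263, 1326 and 355 CPM in the day 90 wells (log2 fold change 4.22 ± 0.298 SE, adjusted p = 7.12e-14). LAMA1 fell and LAMA2 rose in all wells with no overlap, and the epithelial chains LAMA3 (4.91) and LAMB3 (2.26) rose.

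Keratins of stratified epithelium were present in wells 2 and 5 and far lower in well 4. KRT4, a keratin of squamous mucosa, had the second largest rise under the rule for named genes, at 0, 0.0673, 0.236, 0.0325 and 0 CPM in the day 9 wells and 152, 1.25 and 93.96 CPM in the day 90 wells (log2 fold change 10.17 ± 0.91 SE, adjusted p = 8.13e-11). KRT17, another keratin of stratified and basal epithelium, was at 0.19, 0.0673, 0.511, 0.0976 and 0.128 CPM in the day 9 wells and 108, 1.81 and 86.7 CPM in the day 90 wells (log2 fold change 8.36 ± 0.98 SE, adjusted p = 9.19e-09). Both keratins were at 0.511 CPM or less in every day 9 well. S100A8, a calcium-binding protein of myeloid cells and inflamed epithelium, was at 0, 0.0337, 0.0786, 0 and 0 CPM in the day 9 wells and 32.99, 0.835 and 14.5 CPM in the day 90 wells. Further genes of such epithelium were looked up after these values were seen. KRT5, the keratin of basal layers, was at 0, 0.168, 0.197, 0 and 0 CPM in the day 9 wells and 144, 1.04 and 85.2 CPM in the day 90 wells. KRT13, a partner of KRT4, was at 0.227, 0.0673, 0.275, 0.0325 and 0 CPM in the day 9 wells and 219, 0 and 128 CPM in the day 90 wells. Both were high in the same wells as KRT4. TP63, the transcription factor of basal epithelium, was at 0.114, 0.101, 0.511, 1.63 and 1.15 CPM in the day 9 wells and 11.5, 0.0696 and 12.5 CPM in the day 90 wells, and DSG3, a desmosomal cadherin of squamous tissue, at 0.19, 0.202, 0.0393, 0.0325 and 0 CPM in the day 9 wells and 26.7, 0 and 18.4 CPM in the day 90 wells. Across KRT4, KRT5, KRT13, KRT17, TP63 and DSG3, wells 2 and 5 were at 11.5 CPM or more and well 4 at 1.81 CPM or less. The simple-epithelial list went the other way, with 8 of 12 markers lower, led by EPCAM (-3.14) and ESRP1 (-2.14). KRT8, the keratin of simple epithelia, was at 1237, 1333, 1317, 1361 and 2040.3 CPM in the day 9 wells and 846, 651 and 604 CPM in the day 90 wells. CDH1, E-cadherin, was called lower (-1.12) and lost the call without well 2 (-1.13, adjusted p = 0.096) or well 5 (-0.99, adjusted p = 0.151).

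**Figure D4:**
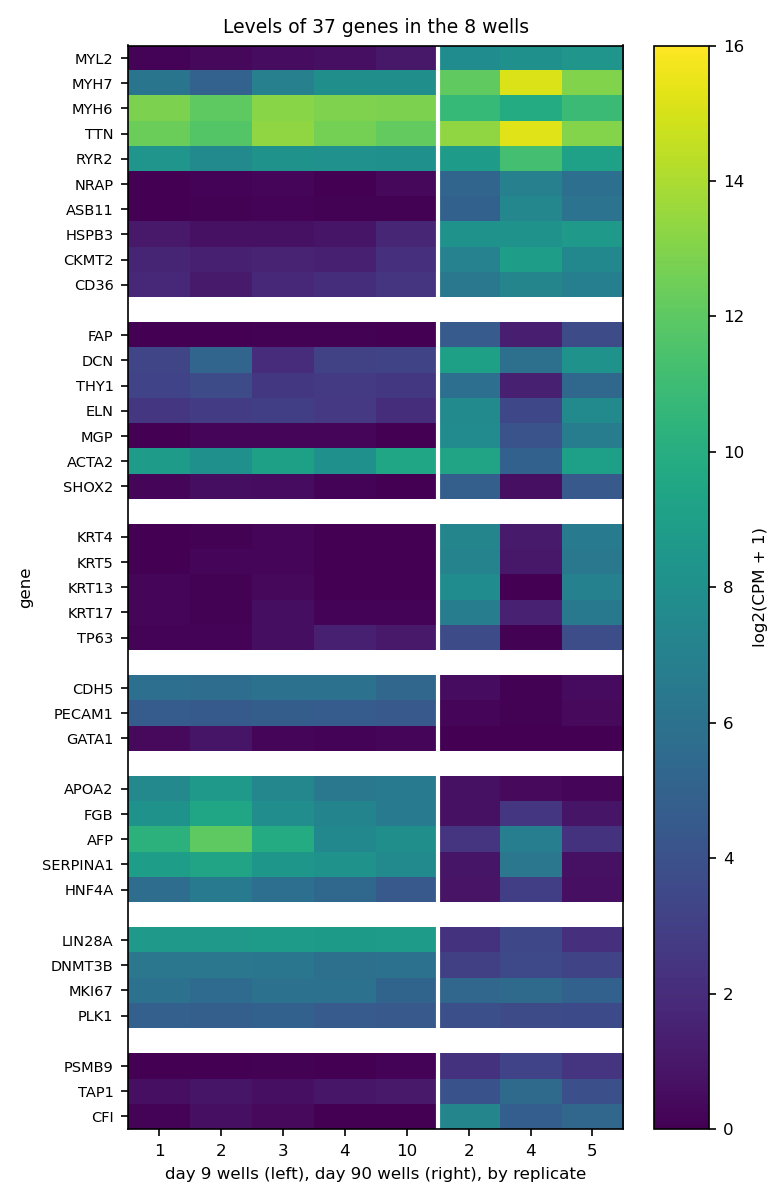
Level of 37 genes in the 5 day 9 wells (left of the white line) and the 3 day 90 wells (right), as log2(CPM + 1), in 7 blocks for muscle, mesenchyme, squamous keratins, endothelium and blood, liver, fetal and cell cycle genes, and immune genes. The mesenchymal and keratin blocks are brighter in day 90 wells 2 and 5 than in well 4, while the liver block keeps some signal in well 4. The mesenchymal block includes SHOX2, which is in the pacemaker list.

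Endothelial RNA was largely lost. The 16 endothelial markers summed to 789, 739, 761, 793 and 519 CPM in the day 9 wells and 242, 101 and 85.3 CPM in the day 90 wells. PECAM1, the adhesion protein CD31, was at 24.7, 22.6, 25.6, 24.7 and 21.3 CPM in the day 9 wells and 0.179, 0.0696 and 0.336 CPM in the day 90 wells (log2 fold change -6.85 ± 0.92 SE, adjusted p = 1.63e-07). VWF, von Willebrand factor, was at 12.4, 17.04, 11.95, 12.98 and 7.36 CPM in the day 9 wells and 0.359, 0 and 0.168 CPM in the day 90 wells (log2 fold change -5.94 ± 0.601 SE, adjusted p = 3.72e-10), and ESAM, a junction protein, fell as well (-7.095). ECSCR, an endothelial surface protein, was under the floor in all 3 day 90 wells, at least 73.2-fold lower. What was left was mostly the receptor KDR, at 331, 291, 298, 338 and 180.3 CPM in the day 9 wells and 154, 69.6 and 25.996 CPM in the day 90 wells, and the receptors TEK (39.9, 6.401 and 15.1 CPM) and FLT1 (18.96, 6.401 and 21.1 CPM in the day 90 wells). CLDN5 was the only endothelial marker not called, and it was at 1.28 CPM or less in every well. Blood markers were low at day 9 and lower at day 90. The erythroid regulators GATA1, at 0.341, 0.842, 0.197, 0.13 and 0.214 CPM in the day 9 wells and 0, 0 and 0 CPM in the day 90 wells, and KLF1, at 2.43, 1.85, 1.81, 1.72 and 1.63 CPM in the day 9 wells and 0, 0 and 0.168 CPM in the day 90 wells, fell with TAL1 (-4.496) and the embryonic globin HBE1 (-5.45). RUNX1 rose (1.96), and lost its call without well 2 (1.49, adjusted p = 0.0835). CSF1R, CD68, SPI1 and PTPRC, markers of macrophages and leukocytes, were not called.

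Liver and foregut RNA fell furthest. The 21 markers summed to 3376, 9845, 2921, 1542 and 1174 CPM in the day 9 wells and 16.1, 239 and 17.1 CPM in the day 90 wells. The highest day 90 sum, in well 4, was below the lowest day 9 sum, in well 10. Day 9 well 2 held the most of this RNA and, of the 5 day 9 wells, the least of the cardiomyocyte markers. APOA1, the main protein of high-density lipoprotein, was at 300.04, 1341, 163, 35.9 and 56.9 CPM in the day 9 wells and 2.82, 5.01 and 3.75 CPM in the day 90 wells (log2 fold change -6.63 ± 1.29 SE, adjusted p = 7.21e-05). AFP, the fetal serum protein alpha-fetoprotein, was at 1217, 4221, 917, 175 and 244 CPM in the day 9 wells and 4.48, 113 and 4.15 CPM in the day 90 wells (log2 fold change -5.07 ± 1.501 SE, adjusted p = 0.0066). SERPINA1, the liver protease inhibitor, was at 469, 663, 347, 300.3 and 204 CPM in the day 9 wells and 0.896, 79.3 and 0.672 CPM in the day 90 wells (log2 fold change -3.89 ± 1.05 SE, adjusted p = 0.00309). HNF4A, a liver transcription factor, was at 51.4, 93.5, 56.2, 41.4 and 21.05 CPM in the day 9 wells and 0.762, 6.82 and 0.56 CPM in the day 90 wells (log2 fold change -4.35 ± 0.89 SE, adjusted p = 1.42e-04). Within day 90, AFP, SERPINA1 and HNF4A were higher in well 4 than in wells 2 and 5, and ALB, albumin, was the 1 marker not called (0.0448, 5.98 and 0.168 CPM at day 90, and -5.70, adjusted p = 0.0161 without well 4). FGB, a chain of the clotting protein fibrinogen, was at 286, 706, 224, 146 and 92.998 CPM in the day 9 wells and 0.672, 4.73 and 0.84 CPM in the day 90 wells, and the 3 chains FGA, FGB and FGG fell together (-7.26, -7.201 and -7.45). Other secreted liver products that fell far were RBP4 (-8.31), AHSG (-8.25), SERPINF2 (-8.16), F2, prothrombin (-7.45), APOC3 (-7.304) and APOB (-7.07). The endoderm transcription factors fell with them in 12 of 16 cases, HHEX (-6.89), FOXA2 (-6.498), FOXA1 (-4.88) and SOX17 (-3.69) included, and NR1H4, the bile acid receptor, rose (4.59). On the log2(TPM + 1) scale 8 of them were lower. How far liver RNA from lane neighbours entered the day 90 libraries was not tested.

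LIN28A and the fetal RNA-binding genes fell in 8 of 9 cases, and pluripotency markers in 4 of 8. LIN28A, which blocks let-7 microRNA, was at 408, 378, 449, 423 and 465 CPM in the day 9 wells and 4.12, 10.02 and 3.698 CPM in the day 90 wells (log2 fold change -6.17 ± 0.37 SE, adjusted p = 8.68e-16). LIN28B (-4.45), TRIM71 (-4.93), HMGA1 (-3.31), HMGA2 (-2.51), IGF2BP1 (-1.703) and IGF2BP3 (-1.13), known as let-7 targets or partners of the same fetal programme, also fell, as did ARID3A (-2.38), a DNA-binding protein. The list's median was -2.51, and IGF2BP2 missed the fold threshold (-0.85). DNMT3B, the DNA methyltransferase of early embryos, was at 80.2, 79.9, 77.7, 57.9 and 60.7 CPM in the day 9 wells and 7.17, 10.4 and 8.57 CPM in the day 90 wells (log2 fold change -3.04 ± 0.17 SE, adjusted p = 2.14e-16). POU5F1, the central pluripotency factor, was low on both days, at 3.94, 1.18, 1.69, 2.47 and 4.66 CPM in the day 9 wells and 1.17, 3.69 and 1.46 CPM in the day 90 wells, and was not called.

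Most cell cycle genes were not called, and several inhibitors of the cycle rose. MKI67, a marker of cycling cells, was at 60.6, 46.9, 64.6, 61.5 and 34.6 CPM in the day 9 wells and 38.6, 45.2 and 30.9 CPM in the day 90 wells, and was not called (log2 fold change -0.49 ± 0.44 SE, adjusted p = 0.408). TOP2A, the topoisomerase of mitosis, was not called either (-0.54). Of 19 mitosis genes the kinase PLK1 was the 1 called, at 29.2, 27.2, 29.7, 23.2 and 20.96 CPM in the day 9 wells and 14.1, 12.2 and 10.9 CPM in the day 90 wells (log2 fold change -1.07 ± 0.36 SE, adjusted p = 0.018), and the call was lost without well 4 (-1.05, adjusted p = 0.0632). On the log2(TPM + 1) scale 4 mitosis genes were called lower. In DNA replication, E2F1 (1.74) and CCNE2 (1.66) rose and ORC1 (-1.32) and CDT1 (-1.07) fell, of 18 genes. That is 11.1% in each direction, near the 11.9% higher and 12% lower of all genes tested. CDKN2A, the locus of the inhibitor p16, was at 0, 0.0673, 0.0786, 0.13 and 0.0428 CPM in the day 9 wells and 3.27, 0.557 and 1.79 CPM in the day 90 wells (log2 fold change 4.75 ± 0.78 SE, adjusted p = 5.90e-06). CDKN2C, the inhibitor p18, was at 0.303, 0.236, 0.275, 0.228 and 0.299 CPM in the day 9 wells and 11.5, 5.22 and 10.8 CPM in the day 90 wells (log2 fold change 5.08 ± 0.699 SE, adjusted p = 2.52e-07). CDKN1A, p21, rose too (3.11), as did CDKN2D (2.73), and CDKN1C, p57, fell (-1.35). CDKN2A overlaps an antisense gene, and its reads could be shared with it. Of 15 p53 and senescence genes 6 rose, IGFBP5 (3.25) and FAS (1.54) among them, and none fell; on the log2(TPM + 1) scale 2 were higher and 2 lower.

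Mitotic promoters often pair a CCAAT box with TTTGAA, the core of the cell cycle homology region. Searched on both strands in the 250 bases before the start, CCAAT was present in 13 of 14 mitosis genes with a promoter in the RefSeq table (92.9%) and in 37% of all 27305 genes there, and TTTGAA in 8 of 14 (57.1%) against 16.1%. Both were present in 7 of 14 (50%), overlapping in 1 promoter, against 5.79% of all genes. Among DNA replication genes 12 of 15 held CCAAT (80%) and 0 of 15 held TTTGAA. PLK1, the 1 mitosis gene called, and CDK1, the mitotic kinase, which was not (-0.19), are shown with both motifs in capitals, as the last 100 bases before the start in GRCh38.p14, 5′ to 3′ on the strand of the gene.
PLK1 (chr16:23678789-23678888, plus strand): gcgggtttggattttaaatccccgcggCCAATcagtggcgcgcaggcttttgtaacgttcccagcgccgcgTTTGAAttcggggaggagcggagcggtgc
CDK1 (chr10:60778378-60778477, plus strand): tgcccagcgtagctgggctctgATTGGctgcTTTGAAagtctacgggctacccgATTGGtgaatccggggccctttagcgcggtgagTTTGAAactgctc
A match of letters does not show that a factor was bound.

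Genes of developmental signalling changed in both directions. Of 12 Wnt targets and feedback genes 7 fell and none rose, with SP5, a direct target, at 5.46, 4.44, 5.47, 4.98 and 6.37 CPM in the day 9 wells and 0.0896, 0 and 0 CPM in the day 90 wells, and LGR5 (-3.69) and LEF1 (-2.29) beside it. On the log2(TPM + 1) scale 3 of them were lower. AXIN2, another direct target, was not called (-0.51). Of 10 secreted Wnt antagonists 4 fell, SOST (-8.19) and WIF1 (-2.56) among them, and 4 rose, DKK2 (5.67), SFRP4 (4.84) and SFRP2 (3.04) among them. In the BMP and TGF-beta list 13 of 22 genes fell and 5 rose, with a median of -1.28. Among ligands NODAL (-5.35), BMP10 (-4.18), BMP2 (-2.65), BMP4 (-1.28) and TGFB2 (-2.33) fell, while BMP5 (1.801), BMP7 (1.61), INHBA (2.204) and LEFTY2 (3.36) rose. BMP10, a ligand of trabecular myocardium, was at 6.07, 7.84, 8.77, 11.8 and 18.01 CPM in the day 9 wells and 0.672, 0.348 and 0.672 CPM in the day 90 wells. The direct targets ID1 (-2.73), ID2 (-2.45) and ID3 (-1.77) fell together. ID1 was at 237, 239.7, 209, 207 and 297 CPM in the day 9 wells and 59.4, 19.97 and 27.8 CPM in the day 90 wells, with no overlap between days. Notch genes fell in 7 of 14 cases, the ligands DLL1 (-4.29), DLL4 (-3.13) and JAG1 (-2.05), the receptor NOTCH1 (-1.72) and the target HES1 (-2.26) among them, and the target HEY2 rose. In the list of FGF ligands and ERK feedback genes 8 of 19 fell and 6 rose. FGF8, FGF19 and FGF16 fell (-7.86, -3.53 and -2.74) and FGF12, FGF1, FGF7, FGF18 and FGF9 rose (6.505, 5.56, 5.24, 4.301 and 3.82). FGF12, which stays inside the cell and binds sodium channels, was at 2.35, 0.976, 3.26, 2.99 and 2.52 CPM in the day 9 wells and 198, 244 and 218 CPM in the day 90 wells. DUSP6, the ERK phosphatase induced by FGF signalling, was at 184, 153, 196, 190.2 and 178 CPM in the day 9 wells and 6.36, 5.57 and 6.27 CPM in the day 90 wells (log2 fold change -4.89 ± 0.39 SE, adjusted p = 1.21e-12), and SPRY4 (-3.28), ETV4 (-2.35) and ETV5 (-2.84) fell with it. For retinoic acid, 5 of 15 genes rose and 1 fell (2 and 2 on the log2(TPM + 1) scale), the risers including the synthase ALDH1A2, the degrading enzyme CYP26B1 (3.71) and the reductase DHRS3 (3.36).

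Heart transcription factors were evenly split, 7 of 25 higher and 7 lower, and their median turned sign with the scaling (0.01 by CPM, -0.68 by log2(TPM + 1)). GATA4 (0.01), TBX5 (-0.298) and NKX2-5 were not called, MEF2A (1.74), TBX20 (1.203) and HOPX (1.77) rose, and TBX2 (-2.08), GATA5 (-1.99) and IRX2 (-1.95) fell. Of 23 HOX genes tested, 4 rose, HOXC6 (2.98), HOXC9 (3.696), HOXA10 (3.502) and HOXD8 (4.23), and 1 fell, HOXB1 (-2.35). None was called on the log2(TPM + 1) scale, where the added 1 TPM leaves genes at so low a level little room for a call. All 5 were low, and HOXC9 was at 0.0379, 0.0337, 0, 0.228 and 0.0428 CPM in the day 9 wells and 1.75, 0.487 and 0.672 CPM in the day 90 wells. The HOX calls by edgeR are 17.4% higher and 4.35% lower, against 11.9% and 12% of all genes tested. Among hormone receptors the beta-1 adrenoceptor ADRB1 was at 0.0758, 0.37, 0.236, 0.26 and 0.813 CPM in the day 9 wells and 1.39, 5.64 and 1.12 CPM in the day 90 wells (log2 fold change 2.94 ± 0.74 SE, adjusted p = 0.0015), and lost its call without well 4 (1.84, adjusted p = 0.0688). The muscarinic receptor CHRM2 (1.56) and CORIN (1.59), the protease that activates natriuretic peptides, rose, and DIO3, which inactivates thyroid hormone, fell (-2.55).

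Genes of antigen presentation and complement were called higher more often than lower. Of 11 blood markers tested, RUNX1 was the 1 called higher and 5 were lower. The leukocyte markers PTPRC, SPI1, CD68 and CSF1R were not called. At day 90, 8 of the 14 listed blood markers were at the floor in every well. S100A8, which myeloid cells also express, rose, and was at 0.835 CPM in day 90 well 4. Which cells carried the RNA of antigen presentation and complement was not tested. PSMB9, a subunit of the immunoproteasome, was at 0.0379, 0, 0.0786, 0 and 0.128 CPM in the day 9 wells and 4.08, 8.35 and 4.54 CPM in the day 90 wells, at least 50.6-fold higher. TAP1, the peptide transporter that shares a promoter region with PSMB9, was at 0.569, 0.875, 0.551, 0.944 and 1.11 CPM in the day 9 wells and 15.1, 45.02 and 13.8 CPM in the day 90 wells (log2 fold change 4.92 ± 0.41 SE, adjusted p = 3.91e-12), and PSMB8 rose beside them (5.36). These 3 genes adjoin and overlap, so part of their reads could be shared. B2M, the light chain of class I molecules, was at 94.1, 116, 82.2, 76.3 and 118 CPM in the day 9 wells and 349, 465 and 318 CPM in the day 90 wells (log2 fold change 1.95 ± 0.16 SE, adjusted p = 5.39e-12), and NLRC5, the activator of class I genes, rose (3.26). MX1 (3.18), IFIT3 (2.76) and IFI6 (2.46) of the interferon response rose, while IFI27 (-1.27), IFITM1 (-1.19) and HLA-E (-1.15) fell, which gives 12 higher and 3 lower of 21, against 6 and 2 on the log2(TPM + 1) scale. In complement, 10 of 17 genes rose and 2 fell, with a median of 2.32. CFI, a protease that inactivates complement, was at 0.114, 0.606, 0.315, 0.0325 and 0 CPM in the day 9 wells and 157, 27.1 and 37.2 CPM in the day 90 wells (log2 fold change 8.37 ± 0.97 SE, adjusted p = 7.77e-09). C1R (4.35) and C1S (3.76), the proteases of the first component, and C3 (3.74), the central component, rose as well. C4A and C4B also rose but are near-identical copies. C5, made by liver, fell (-4.34).

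Ribosomal protein and immediate early genes were not called. None of 45 cytoplasmic ribosomal protein genes was called by edgeR, and their log2 fold changes stayed between -0.42 (RPS18) and 0.42 (RPLP1). At an unadjusted p under 0.05 there were 4 of them, and DESeq2 called 0. None of 18 immediate early genes was called by edgeR, against 2 at an unadjusted p under 0.05 and 1 by DESeq2; without well 4, 4 were called lower. Of 18 amino acid stress genes 3 rose and 1 fell, against 0 and 6 on the log2(TPM + 1) scale. By edgeR that is 16.7% higher and 5.56% lower, against 11.9% and 12% of all genes tested. Of 15 splicing regulators 5 rose, RBFOX1 (1.93), MBNL1 (1.82) and RBM20 (1.44) among them, and 4 fell, PTBP1 (-1.605) and ESRP1 (-2.14) among them; on the log2(TPM + 1) scale 0 were higher and 4 lower. RBM20, which directs titin splicing, was at 50.2, 34.8, 54.3, 44.8 and 57.3 CPM in the day 9 wells and 88.3, 184 and 120.01 CPM in the day 90 wells.

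**Figure D5:**
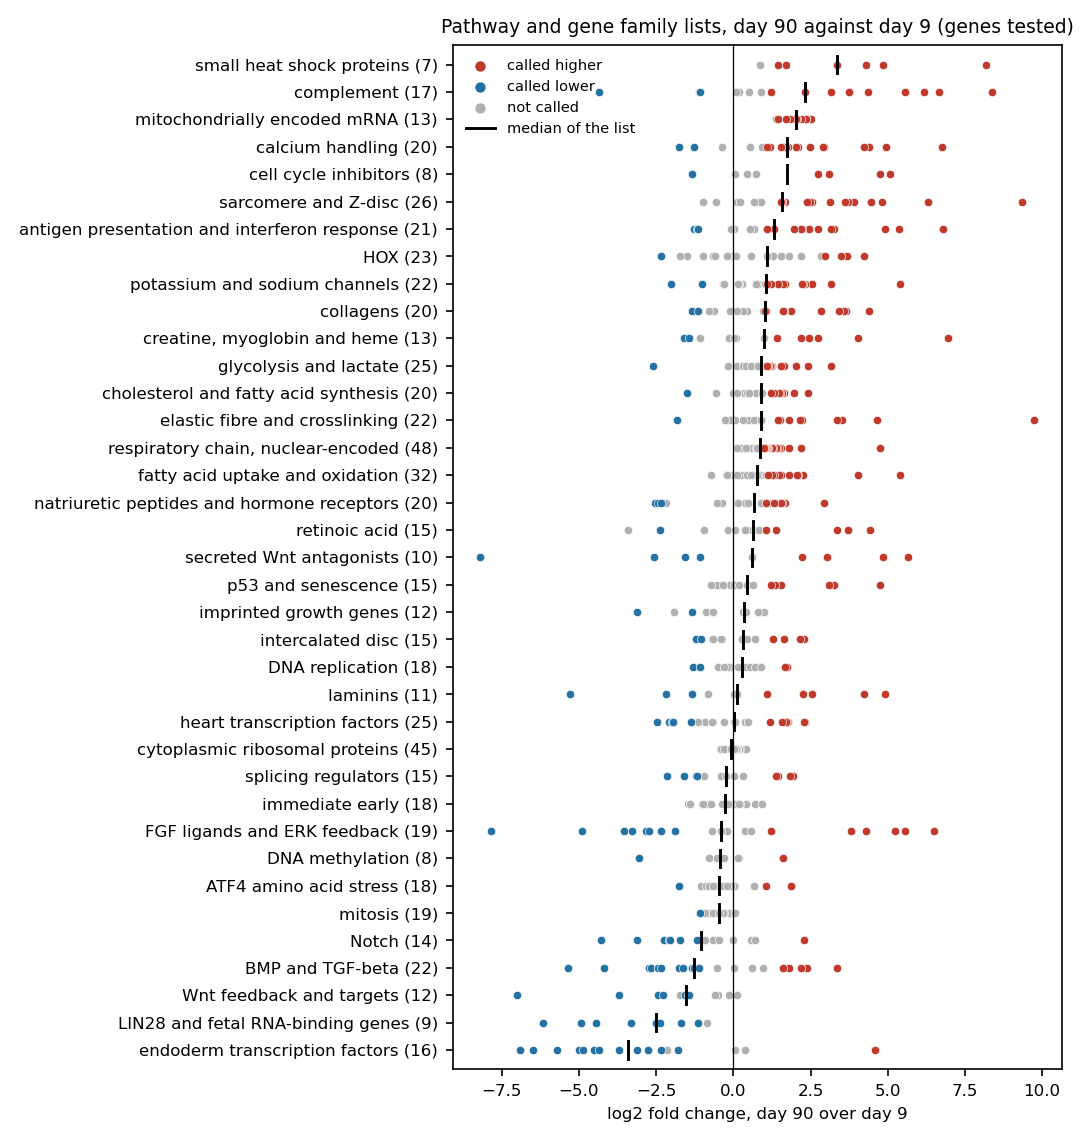
Log2 fold change of day 90 over day 9 for each tested member of 37 pathway and gene family lists, 1 point per gene, sorted by the median of each list (black bar). Red points were called higher, blue called lower and grey neither. Small heat shock protein and complement lists lie furthest right, endoderm factors and fetal RNA-binding genes furthest left, and ribosomal protein genes stay close to 0.

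Genes switched on or off, at 3 counts or fewer in every well of one day and 1 TPM or more in every well of the other, numbered 8 on and 23 off. Protein-coding genes made up 7 of those on and 12 of those off. All 8 switched on were called, and by TPM the highest were ASB11, the neural protein BRINP3, the antisense gene AC016650.1, the metallothionein MT3 and the secreted protease inhibitor SLPI. BRINP3 was at 0, 0.0337, 0.0393, 0 and 0.0856 CPM in the day 9 wells and 46.1, 75.5 and 67.3 CPM in the day 90 wells, at least 564-fold higher. Of the 23 switched off 16 were called. The 5 with the highest TPM were small RNAs at under 1 CPM (RNU5E-6P, ENSG00000238648, RF00092, SNORA21B and RF00003), and none of these 5 was called. All of them but RF00003 were also at 3 counts or fewer in at least 1 day 9 well, as were RNU1-120P and RNVU1-3. A switch is therefore not shown for those genes. Among protein-coding genes the highest were FGF8, ECSCR, FGG, the bile acid enzyme AKR1D1 and the muscle protein MUSTN1. MUSTN1 was at 6.67, 15.1, 5.23, 3.84 and 3.38 CPM in the day 9 wells and 0, 0 and 0.112 CPM in the day 90 wells, the reverse of the muscle genes above. CGA, the alpha chain shared by pituitary and placental hormones, had one of the 12 largest falls of protein-coding genes with a mean of 10 TPM or more at day 9 and no overlap between days, and was at 26.6, 15.6, 61.03, 66.3 and 61.6 CPM in the day 9 wells and 0.179, 0.0696 and 0.224 CPM in the day 90 wells.

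Libraries of the days between place some of these changes in time. MYL2 was at 4.92 to 13.5 CPM at day 20 and 22.6 to 265 CPM at day 30, and the highest day 30 well lay within the day 90 range. ASB11 was at 0.407 to 7.497 CPM at day 30, and it was the later of the pair, with every day 30 well below every day 90 well. CDH5 was at 16.9 to 25.97 CPM at day 11 and 1.95 to 14.4 CPM at day 30. APOA2 was at 17.7 to 308 CPM at day 11 and 0.625 to 3.43 CPM at day 30. Its median was 31.9 CPM at day 11 and 125 CPM at day 14, so its fall was not steady. By day 30 every well was below every day 9 well for both CDH5 and APOA2. The day 30 wells overlapped day 90 for APOA2 and not for CDH5. KRT5 was at 0.204 to 2.59 CPM at day 30, far below wells 2 and 5 of day 90. LIN28A was at 25.3 to 93.4 CPM at day 20 and 8.52 to 14.4 CPM at day 30.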

How the data were processed

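RNA of 44 wells was sequenced as stranded total RNA libraries, and 8 of them, 5 at day 9 and 3 at day 90, are compared here. The authors deposited a table of expected counts per gene and a table of TPM (transcript abundance per length and library); the labels' processing notes name cutadapt, STAR 2.5.2b, RSEM 1.2.31 and the build hg38. The annotation release and whether counting used strand are not given in the sources used here. A deposited sample sheet gave the lane, the sequencing batch, the biological replicate number and the RNA integrity score of each library. The sequencing batch was used in no fit, and whether it differed between the days was not examined.

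Gene symbols and coordinates came from GENCODE 29, in which 56769 of 60499 identifiers were found. Expected counts were rounded to whole numbers, filtered by filterByExpr, scaled by TMM and fitted in edgeR 4.0.16 (R 4.3.3) with 1 mean for each of 12 groups over all 44 libraries. A gene was called at a Benjamini-Hochberg adjusted p under 0.05 and a log2 fold change of at least 1; its SE was the absolute log2 fold change divided by the square root of the F statistic. Library totals spanned 18450560 to 31040870 counts. Ratios and shares were compared by two-sided exact permutation tests (scipy 1.17.1). On simulated data with 200 changed genes of 22955, the fit called 65% of 4-fold and 25% of 2-fold changes and 5 unchanged genes. The 2-fold changes lay at the threshold itself, and far fewer genes changed than the 23.9% called in the data. Spread was drawn from the estimate over all 44 libraries, not from the wider spread at day 90. These rates therefore do not give the sensitivity of the calls reported here. Alternatives were other scalings, filters and fits, DESeq2 1.42.0, limma 3.58.1 on log2(TPM + 1) or log2(TPM + 0.1), and leaving out each well.

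Named genes were the 4 markers, the 12 largest rises and 12 largest falls among called protein-coding genes with a mean of 10 TPM or more in the higher group and no overlap in TPM, members of the lists with large changes or known roles, and switched genes. Members and lists were chosen with earlier results of these data known. Of 886 list entries 885 were matched, and some members are counted but not reported by name here. Promoters were those of RefSeq in GRCh38.p14.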

Additional observations from a re-analysis of the deposited data

Results flagged for a closer look

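In groups of 5 day 9 wells, 1 well stood far from the other 4 in 30 of 272 quantities examined, by Dixon's ratio above 0.71; chance flags about 1 in 20. Well 2 was the distant well in 19 of them, well 10 in 6, well 1 in 4 and well 4 in 1.

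Day 9 well 2 was high in liver genes. AFP was at 4221 CPM there (175 to 1217 CPM in the other 4 wells), APOA1 at 1341 CPM (35.9 to 300.0 CPM), FGA at 263 CPM (57.1 to 108 CPM), AHSG at 239 CPM (1.72 to 45.4 CPM), RBP4 at 164 CPM (1.14 to 27.1 CPM), APOC3 at 50.1 CPM (0.293 to 7.89 CPM) and FGG at 47.8 CPM (8.30 to 18.05 CPM). It was also high in mesenchymal and matrix genes, with COL3A1 at 3857 CPM (1252 to 1842 CPM), POSTN at 65.4 CPM (7.47 to 12.5 CPM), DCN at 35.7 CPM (3.11 to 8.95 CPM), LAMB3 at 10.1 CPM (1.71 to 2.18 CPM), FBLN5 at 5.93 CPM (1.54 to 2.31 CPM) and C1S at 5.12 CPM (2.95 to 3.34 CPM). Other genes highest in well 2 were DSG2 at 287 CPM (207 to 218 CPM), CDK1 at 62.1 CPM (43.1 to 48.5 CPM), MUSTN1 at 15.1 CPM (3.38 to 6.67 CPM), the globin HBE1 at 13.4 CPM (0.984 to 3.18 CPM), WIF1 at 2.02 CPM (0.0325 to 0.341 CPM) and RUNX1 at 1.95 CPM (1.21 to 1.30 CPM).

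Day 9 well 10 was low in LAMA1, at 213 CPM (388 to 444 CPM in the others), and high in KRT8, at 2040.3 CPM (1237 to 1361 CPM), ISL1, at 27.6 CPM (8.01 to 12.8 CPM), SYNPO2, at 21.5 CPM (5.89 to 8.73 CPM), CKMT2, at 3.42 CPM (1.62 to 2.12 CPM), and HSPB3, at 2.35 CPM (0.640 to 1.10 CPM). Day 9 well 1 was high in MT-ND3, at 91.9 CPM (35.2 to 48.9 CPM), TBX5, at 76.2 CPM (37.5 to 46.3 CPM), and KLF1, at 2.43 CPM (1.63 to 1.85 CPM), and low in the log2 ratio of MYL2 to MYL7, at -14.62 (-13.00 to -12.63 in the others). Day 9 well 4 was high in SFRP2, at 8.46 CPM (0.813 to 2.65 CPM).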

How the results depend on the processing

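The count of called genes was 5485 and lay within 1.5 times of that in all but 1 of the 18 alternatives, the exception being limma on log2(TPM + 1), with 2787 genes called, of which 19.8% were higher. With log2(TPM + 0.1), 5670 genes were called and 19.5% were higher, against 49.9% in edgeR. By RLE size factors the share was 53.9% and by DESeq2 53.4%. The median of all genes moved by 0.08 (log2) with RLE and by -0.45 with log2(TPM + 1). Leaving out 1 well gave 4909 to 5554 calls. Of the 5485 calls, 4499 remained without day 90 well 4. Of 276 called genes named here, 78 lost the call with log2(TPM + 1), 25 without day 90 well 4 and 5 with DESeq2, and no called gene turned its direction. Total calls within lists moved by over 1.5 times in 56 of 954 list and setting pairs.

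Leaving out 1 well changed the differences in log2 TPM ratio to between 1.70 and 2.22 for TNNI3/TNNI1, 7.65 and 9.65 for MYH7/MYH6, 7.64 and 8.16 for MYL2/MYL7, 1.22 and 2.08 for COX6A2/COX6A1, 4.14 and 5.34 for COX7A1/COX7A2, 4.08 and 4.53 for CKM/CKB, and -0.88 and -0.73 for LDHB/LDHA. The difference in mitochondrially encoded share was 0.732 to 1.47 percentage points. None of these could reach an exact p under 0.05, because 4 wells against 3 allow 0.0571 and 5 against 2 allow 0.0952 at the least, so they say nothing about the test.

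Replicate numbers 2 and 4 occur on both days, and the labels do not say that a number marks a shared culture. With the replicate block 5548 genes were called, 47.5% of them higher; the correlation of deviations was 0.0965 for the pair numbered 2 and 0.155 for the pair numbered 4.

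A gene at or below 0.134 CPM in day 90 well 2, 0.209 CPM in well 4 or 0.168 CPM in well 5 rests there on 3 counts or fewer. The number of wells, 3 against 5, limits the precision of every fold change.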

Other observations

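Imprinted growth genes, which no comparison above describes, were mostly not called. Of 12 tested, 2 fell, NNAT (-3.11) and CDKN1C (-1.35), and none rose. That is 16.7% lower, near the 12% of all genes tested, and 0% higher against 11.9%. IGF2, the fetal growth factor, was at 1297, 2316, 798, 580.3 and 869 CPM in the day 9 wells and 2839.9, 2115 and 1854 CPM in the day 90 wells, and H19, the RNA of the neighbouring locus, at 416, 762, 280.3, 498 and 663 CPM in the day 9 wells and 767, 1691 and 422 CPM in the day 90 wells. Day 9 well 2 had the highest IGF2 level of the day 9 wells. The list's median was 0.36 by CPM and -0.08 on the log2(TPM + 1) scale.

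Among cartilage and fat markers ACAN, the cartilage proteoglycan aggrecan, was at 9.06, 15.3, 17.4, 22.3 and 6.54 CPM in the day 9 wells and 0.448, 0 and 0.672 CPM in the day 90 wells (log2 fold change -5.16 ± 0.7002 SE, adjusted p = 1.94e-07), and COL2A1, cartilage collagen, fell too (-2.17). The neural list had 1 gene higher, MAP2 (1.93), and 1 lower, ELAVL4 (-2.79), of 10 tested. That is 10% in each direction, against 11.9% higher and 12% lower of all genes tested. TET2, which removes DNA methylation marks, rose (1.604).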
